A study of Homo sapiens with 6 samples.

Results

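The comparison set 3 cultures of K562 cells grown with doxycycline against 3 grown without it, 1 of each from every clone, and asked which transcripts moved the same way in all 3 clones whatever hairpin the clone carried. It used all 6 libraries of the series, paired by clone. K562 is an established human erythroleukaemia line that makes embryonic and fetal globins. Each clone carries a short hairpin RNA (shRNA) that doxycycline switches on. In the NT clone the hairpin is non-targeting, and in the clones CDAN1-shRNA-c1 and CDAN1-shRNA-c2 (c1 and c2 below) it targets CDAN1, the gene mutated in a congenital dyserythropoietic anaemia. The induced culture of each clone received 1 µg/ml doxycycline for 4 days and the uninduced culture of the same clone received none. All 6 were harvested at day 4, and puromycin at 2 µg/ml was used to keep every clone, uninduced cultures included. Each hairpin is represented by cells of 1 or 2 clones and each clone and condition by 1 culture, so p-values here measure the spread between these libraries only, and what a clone is cannot be told apart from what its hairpin does.

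Doxycycline is a tetracycline antibiotic. In inducible shRNA systems it binds a bacterial repressor or activator protein and so opens the promoter that drives the hairpin, which is then cut to a small RNA and loaded into an Argonaute protein. Tetracyclines also bind the ribosomes of mitochondria, which descend from bacteria, and can slow the synthesis of the respiratory chain subunits that mitochondrial DNA encodes. A response found in every clone can therefore contain effects of the drug, of hairpin expression as such, or of handling shared by the induced cultures, and this design holds no culture that would separate them.

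The libraries held between 28318555 and 32352246 estimated reads, and 13563 genes passed the filter on low counts. The levels below are CPM (estimated reads relative to the library's total in genes, scaled by TMM), and a pair response is the log2 CPM of a clone's induced library minus that of its uninduced library. CDAN1 served as the check of the labels. It stood at 62.5 CPM without and 70.2 CPM with doxycycline in NT, at 36.6 and 17.0 CPM in c1, and at 55.8 and 29.9 CPM in c2. Doxycycline left CDAN1 at 112.2% of its uninduced level in NT, 46.3% in c1 and 53.6% in c2, which matches the hairpin each clone is labelled with. The erythroid markers of the line were abundant in every library: the 10 globin genes found summed to 10710 to 15790 CPM uninduced and to 12080 to 16800 CPM induced (the sums over marker lists, here and below, were scaled before the filter on low counts). In bulk RNA, fewer cells of a type and less RNA per cell cannot be told apart.

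Few genes passed the threshold for a response shared by the clones. The paired test (edgeR's quasi-likelihood test with the clone as a block, Benjamini-Hochberg adjusted p under 0.05) called 20 genes, 0.147% of those tested. LMNB2, FAM117A and HSPG2 rose, 3 genes or 0.0221% of those tested, and 17 genes or 0.125% fell. All 20 had the same sign in every pair, as did 38.1% of all genes tested, and DESeq2 and limma's voom with the same block called each of the 20 as well. Leaving AC120057.2 aside, the fitted changes ran from −0.92 on the log2 scale for FRYL to 0.58 for LMNB2. Over all genes tested, 933 (6.88%) were higher and 992 (7.31%) lower at an unadjusted p under 0.05 in this paired test. With 2 residual degrees of freedom, a short list of calls does not show that the shared response was small. With library totals in place of TMM scaling 24 genes were called, 7 higher and 17 lower. The calls are close to the threshold: an offset for average transcript length, keeping the transcripts without a gene match, or leaving out the clone block each left 0 calls by edgeR, with 1445, 1671 and 207 genes at an unadjusted p under 0.05. Without clone c1 the test called 3 genes, of which COLGALT2 was 1 of the 20 (log2 fold change −0.55, adjusted p = 0.0486).

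**Figure D1:**
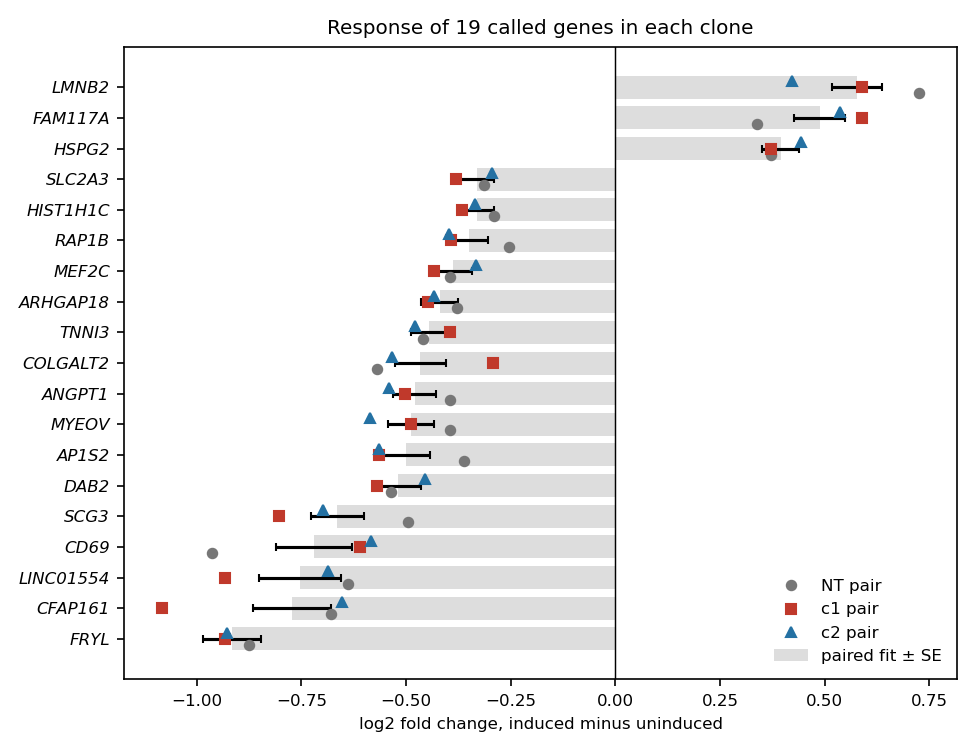
Response of 19 of the 20 called genes (AC120057.2, with 0 reads in the induced libraries, is left out). The horizontal axis is the log2 fold change of induced over uninduced libraries, bars with error bars are the paired edgeR estimate ± SE over 3 pairs, and circles, squares and triangles are the NT, c1 and c2 pairs; all 3 points of every gene lie on the same side of 0.

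Genes that rose were led by LMNB2, which encodes lamin B2, a filament protein under the inner nuclear membrane (ENSG00000176619, chromosome 19, 2427638 to 2456996 on GRCh38). Its level went from 115.3 to 190.7 CPM in NT, from 137.4 to 206.7 CPM in c1 and from 183.4 to 245.8 CPM in c2. Every induced library lay above every uninduced library, 214.4 ± 28.4 CPM against 145.4 ± 34.7 CPM (SD, n = 3 each). The log2 fold change was 0.58 ± 0.06 (SE, 3 pairs, edgeR adjusted p = 0.0317). The transcript LMNB2-201 carried 99.2% of the gene's reads and stood at 170.7%, 148.3% and 135.9% of its uninduced TPM (abundance relative to transcript length and library total) in NT, c1 and c2. FAM117A (ENSG00000121104, chromosome 17, 49710332 to 49789180) went from 75.7 to 95.7 CPM in NT, from 64.0 to 96.5 CPM in c1 and from 76.0 to 110.3 CPM in c2, also without overlap between the groups, for a log2 fold change of 0.49 ± 0.06 (adjusted p = 0.0457). HSPG2 encodes perlecan, a heparan sulphate proteoglycan of basement membranes (ENSG00000142798, chromosome 1, 21822245 to 21937297). It went from 209.7 to 271.2 CPM in NT, from 102.0 to 132.0 CPM in c1 and from 89.7 to 122.1 CPM in c2. NT sat far above the other clones in both conditions, so the groups overlapped, while the 3 pair responses lay close together at 0.37, 0.37 and 0.44 (log2 fold change 0.39 ± 0.04, adjusted p = 0.0349).

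Nuclear lamina genes as a group did not rise as far as LMNB2. Of 11 tested, 1 was called higher (0.0221% of all genes tested) and none of the other 10 was called in either direction. At an unadjusted p under 0.05, 3 were higher and 1 lower, against 6.88% and 7.31% of all genes tested. In every pair, 3 were positive and 1 negative, against 18.7% and 19.5%. The list's median response was 0.04 in NT, 0.12 in c1 and 0.01 in c2, beside medians within 0.003 of 0 over all genes tested. SUN1, which links the lamina to the cytoskeleton, had pair responses of 0.22, 0.12 and 0.29 (adjusted p = 0.185), and LEMD3, an inner membrane protein, had −0.16, −0.14 and −0.18 (adjusted p = 0.297).

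Among genes of the extracellular matrix and its proteases, 7 of 16 tested had a positive response in every pair and 1 had a negative one in every pair, against 18.7% and 19.5% of all genes tested. HSPG2 was the called member (DESeq2 called 3 higher and voom 2), and 6 of the 16 were higher at an unadjusted p under 0.05 (6.88% of all genes tested) while 0 were lower at that level (7.31%). The median response was 0.15 in NT, 0.16 in c1 and 0.26 in c2. COL18A1, the chain of collagen XVIII that carries endostatin, stood at 186.5, 204.1 and 117.8 CPM uninduced and at 231.4, 352.0 and 185.3 CPM induced in NT, c1 and c2. Its log2 fold change was 0.58 ± 0.08 (adjusted p = 0.0579), with a smaller response in NT (0.31) than in c1 (0.79) or c2 (0.65) and an unadjusted p of 0.00401 and an adjusted p of 0.477 for the difference between the CDAN1 clones and NT. AGRN, agrin, had pair responses of 0.16, 0.34 and 0.28 (adjusted p = 0.102). MMP15, a membrane-bound metalloproteinase, had 0.22, 0.30 and 0.25 (adjusted p = 0.185), with induced libraries at 36.1 to 38.7 CPM above uninduced ones at 30.5 to 32.6 CPM.

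Below the threshold, the genes of smallest p among those with a positive response in every pair were of varied kinds, and edgeR called none of them. DESeq2 called each of those named here, and voom called CPNE2, PTPRF, PALM and ZC3H7B. CPNE2, a calcium-dependent membrane-binding copine, stood at 5.70, 9.22 and 5.83 CPM uninduced and at 11.3, 14.9 and 10.6 CPM induced in NT, c1 and c2 (log2 fold change 0.84 ± 0.11, adjusted p = 0.0567). The groups did not overlap. PTPRF, a receptor tyrosine phosphatase, stood at 14.5, 15.3 and 8.93 CPM uninduced and at 26.4, 32.5 and 12.3 CPM induced (0.82 ± 0.12, adjusted p = 0.0584). SEMA7A, a membrane-anchored semaphorin that carries a blood group antigen, had pair responses of 0.36, 0.48 and 0.50 (adjusted p = 0.0584). Further genes of that kind were PALM (0.74, 0.76 and 0.45, adjusted p = 0.0584), ZC3H7B (0.40, 0.50 and 0.26, adjusted p = 0.0579), LIMK1, the kinase that inactivates cofilin (0.44, 0.48 and 0.30, adjusted p = 0.0906), and STMN3, a stathmin that binds tubulin (0.25, 0.44 and 0.26, adjusted p = 0.0906).

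SCG3 fell by 0.66 ± 0.06 on the log2 scale (SE, 3 pairs, edgeR adjusted p = 0.0317). It encodes secretogranin III, a granin of secretory granules (ENSG00000104112, chromosome 15, 51681353 to 51721031). Its uninduced libraries held 186.5, 155.7 and 135.2 CPM and its induced libraries 132.4, 89.2 and 83.3 CPM in NT, c1 and c2. Every induced library was below every uninduced one. Both coding transcripts that carry its reads were lower in every pair: SCG3-201 stood at 73.8%, 58.6% and 65.2% of its uninduced TPM in NT, c1 and c2, and the other, of 2163 bases, at 72.0%, 51.7% and 50.4%. The pair response was smaller in NT (−0.49) than in c1 (−0.80) or c2 (−0.70), a difference with an unadjusted p of 0.0468 and an adjusted p of 0.953.

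FRYL, a large protein related to the Drosophila furry gene, had the smallest p of all genes (ENSG00000075539, chromosome 4, 48497361 to 48780322). Uninduced libraries held 26, 29 and 38.9 CPM and induced libraries 14.1, 15.2 and 20.4 CPM in NT, c1 and c2, without overlap, and the gene fell by 0.92 ± 0.07 on the log2 scale (adjusted p = 0.0188). Most of the reads lost in NT and c1, but not in c2, were in 1 transcript model. FRYL-205, of 11103 bases, was given 244.0, 257.8 and 278.1 estimated reads in the uninduced libraries and 0, 0 and 41.3 in the induced ones. FRYL-211, the model with the most reads, was given 145.6, 341.4 and 558.6 reads uninduced and 195.2, 311.5 and 339.8 induced, so it stood at 137.5% of its uninduced TPM in NT, 85.0% in c1 and 58.2% in c2. Summed without FRYL-205, the gene had pair responses of −0.25, −0.40 and −0.62 and a log2 fold change of −0.43 ± 0.09 (adjusted p = 0.145). Transcript models of 1 gene share most of their sequence, and the estimates divide the shared reads between them.

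**Figure D2:**
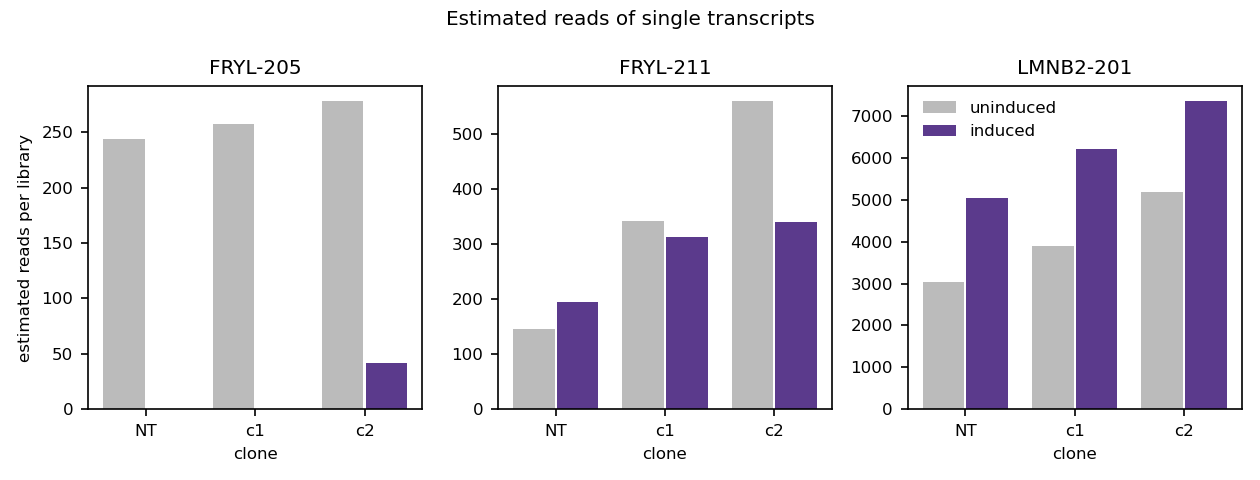
Estimated reads per library (vertical axes, linear from 0) of FRYL-205, FRYL-211 and LMNB2-201 in the NT, c1 and c2 clones, uninduced in grey and induced in purple. FRYL-205 goes from 244.0 to 0 in NT and from 257.8 to 0 in c1 while FRYL-211 goes from 145.6 to 195.2 in NT, whereas LMNB2-201 is higher in the induced library of every clone.

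ANGPT1, CD69, DAB2, RAP1B, ARHGAP18 and AP1S2 also fell. ANGPT1, the ligand angiopoietin 1 that activates the receptor TEK (TIE2), held 109.8, 76.5 and 160.0 CPM uninduced and 83.5, 54.0 and 110.0 CPM induced in NT, c1 and c2 (log2 fold change −0.48 ± 0.05, adjusted p = 0.0317). The clones differed more from each other than the conditions did, and each clone was lower with doxycycline. CD69, an early activation antigen of leukocytes, held 36.3, 40.8 and 21.6 CPM uninduced and 18.6, 26.7 and 14.4 CPM induced (−0.72 ± 0.09, adjusted p = 0.0466). Its response was larger in NT (−0.96) than in c1 (−0.61) or c2 (−0.58), with an unadjusted p of 0.0466 and an adjusted p of 0.953 for that difference. DAB2, an endocytic adaptor, held 77.3, 59.7 and 117.4 CPM uninduced and 53.3, 40.2 and 85.6 CPM induced (−0.52 ± 0.05, adjusted p = 0.0317). RAP1B, a small GTPase that controls integrins, held 312.2, 398.2 and 643.7 CPM uninduced and 261.8, 303.3 and 488.6 CPM induced (−0.35 ± 0.05, adjusted p = 0.0499). ARHGAP18, a GTPase-activating protein for RhoA, had pair responses of −0.38, −0.45 and −0.43 (adjusted p = 0.0317), and AP1S2, a subunit of the AP-1 clathrin adaptor, had −0.36, −0.56 and −0.57 (adjusted p = 0.0349).

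MEF2C, a MADS-box transcription factor with roles in muscle and in megakaryocytes, held 171.4, 157.3 and 218.0 CPM uninduced and 130.3, 116.4 and 173.1 CPM induced in NT, c1 and c2 (−0.39 ± 0.04, adjusted p = 0.0349). TNNI3, known as cardiac troponin I, held 121.1, 137.3 and 186.5 CPM uninduced and 88.1, 104.4 and 133.8 CPM induced (−0.44 ± 0.04, adjusted p = 0.0317). Both had overlapping groups; their pair responses were −0.40, −0.43 and −0.33 for MEF2C and −0.46, −0.39 and −0.48 for TNNI3. COLGALT2, a galactosyltransferase that modifies collagen, had −0.57, −0.29 and −0.53 (adjusted p = 0.0499), and MYEOV had −0.39, −0.49 and −0.59 (adjusted p = 0.0349). CFAP161, a protein of cilia and flagella, held 50.4, 11.4 and 63.7 CPM uninduced and 31.4, 5.36 and 40.5 CPM induced (−0.77 ± 0.09, adjusted p = 0.0457). The long non-coding RNA LINC01554 held 12.3, 13.5 and 29.5 CPM uninduced and 7.88, 7.05 and 18.3 CPM induced (−0.75 ± 0.10, adjusted p = 0.0499).

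**Figure D3:**
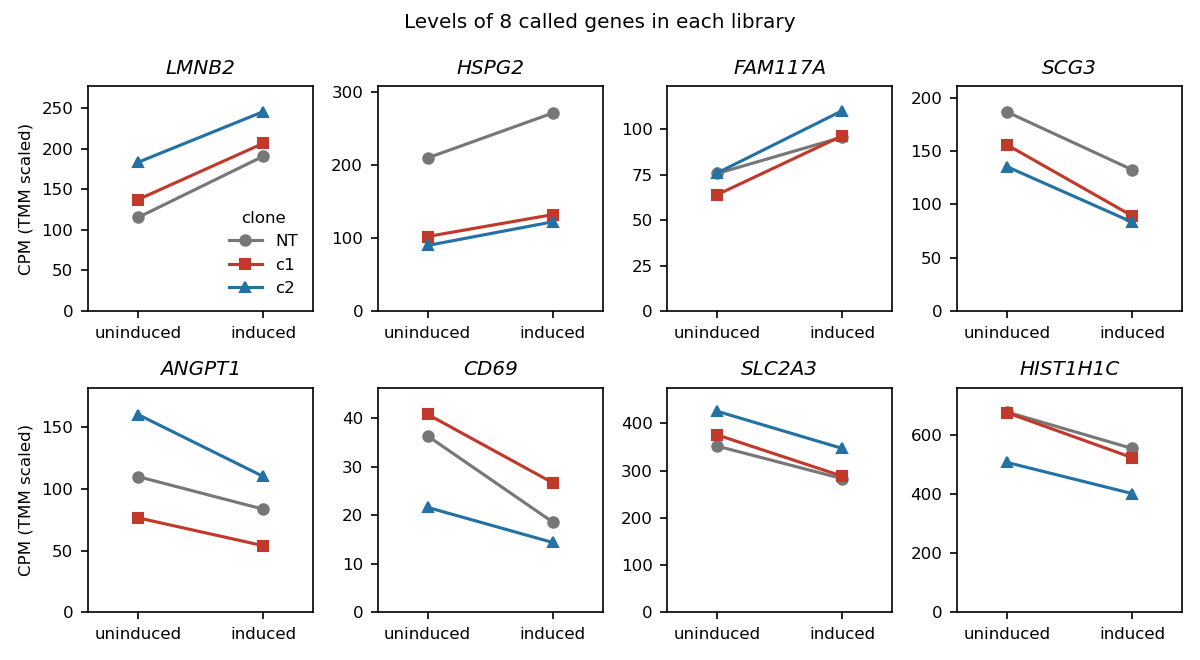
CPM (vertical axes, linear from 0) of 8 called genes in the uninduced and induced library of each clone, joined by a line per clone (grey circles NT, red squares c1, blue triangles c2). The groups of 3 libraries do not overlap for LMNB2, FAM117A, SCG3 and SLC2A3, and overlap for HSPG2, ANGPT1, CD69 and HIST1H1C, where each clone still moves the same way.

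SLC2A3, which encodes the neuronal and platelet glucose transporter GLUT3, fell by 0.33 ± 0.04 on the log2 scale (adjusted p = 0.0457), from 351.7, 375.3 and 425.3 CPM to 282.9, 288.1 and 346.7 CPM in NT, c1 and c2, without overlap between the groups. It was the member that edgeR and voom called among the 32 glycolysis and hypoxia genes tested, and DESeq2 called 3 lower. Of the 32, 16 had a negative response in every pair and 4 a positive one, against 19.5% and 18.7% of all genes tested. At an unadjusted p under 0.05, 12 were lower and 1 higher, against 7.31% and 6.88% of all genes tested. The median response was −0.22 in NT, −0.03 in c1 and −0.09 in c2. ALDOC, an aldolase, had pair responses of −0.41, −0.48 and −0.20 (adjusted p = 0.0912, and 0.000952 by DESeq2), and PGK1, phosphoglycerate kinase, had −0.20, −0.21 and −0.18 (adjusted p = 0.141). LDHA, lactate dehydrogenase A, stood at 1052, 1036 and 956 CPM uninduced and at 860, 916 and 876 CPM induced (adjusted p = 0.165, and 0.0179 by DESeq2). TXNIP and its relative ARRDC4, arrestin-like proteins that restrain glucose uptake and whose genes respond to glucose, were looked up after their values had been seen. TXNIP stood at 314.4, 339.9 and 300.8 CPM uninduced and at 219.9, 289.7 and 235.4 CPM induced (log2 fold change −0.37 ± 0.06, adjusted p = 0.0690). ARRDC4 stood at 47.4, 39.8 and 48.8 CPM uninduced and at 29.6, 31.3 and 29.4 CPM induced (−0.59 ± 0.09, adjusted p = 0.0584). Neither gene had overlapping groups.

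Replication-dependent histone genes had negative responses in most members and all clones. Of 21 tested, 16 had a negative response in every pair and 1 a positive one, against 19.5% and 18.7% of all genes tested. At an unadjusted p under 0.05, 11 were lower and 0 higher, against 7.31% and 6.88% of all genes tested. HIST1H1C was called by edgeR and voom, with 4 members called lower by DESeq2. The median response was −0.33 in NT, −0.29 in c1 and −0.28 in c2. The CPM of the 26 members found in the tables summed to 1351, 1335 and 1105 uninduced and to 1092, 1041 and 912.7 induced in NT, c1 and c2. Every induced sum thus lay below every uninduced one, narrowly so for induced NT (1092) against uninduced c2 (1105). HIST1H1C gave a large part of the sums, 678 of the 1351 CPM in uninduced NT. HIST1H1C, a linker histone (ENSG00000187837, chromosome 6, 26055787 to 26056428), held 678.4, 676.1 and 507.8 CPM uninduced and 555.2, 524.1 and 402.5 CPM induced and fell by 0.33 ± 0.04 on the log2 scale (adjusted p = 0.0457). The groups overlapped because c2 was lowest in both conditions. HIST1H2AC stood at 152.7, 177.2 and 171.1 CPM uninduced and at 129.0, 129.1 and 136.9 CPM induced (−0.34 ± 0.05, adjusted p = 0.0637). HIST2H2BE stood at 110.3, 99.8 and 89.2 CPM uninduced and at 77.6, 60.7 and 73.1 CPM induced (−0.50 ± 0.08, adjusted p = 0.0688). HIST2H2AA3 had pair responses of −0.36, −0.30 and −0.28 (adjusted p = 0.0690) and HIST1H2BC had −0.33, −0.27 and −0.52 (adjusted p = 0.142). Most replication-dependent histone mRNA lacks a poly(A) tail and the clustered genes are near-identical, so the estimates for single members are uncertain and how the libraries selected RNA bears on their level.

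Counts were smaller for cell cycle genes. Of 23 S phase genes tested, 7 had a negative response in every pair and 3 a positive one. Of 24 genes of G2 and M phase, 6 were negative and 2 positive in every pair, against 19.5% and 18.7% of all genes tested. Among the S phase genes, 0 were higher and 1 was lower at an unadjusted p under 0.05, against 6.88% and 7.31% of all genes tested. Their medians were −0.06, 0.04 and −0.03 in NT, c1 and c2. Of 24 genes of G2 and M phase, 2 were higher and 3 lower at that level, with medians of −0.04, −0.11 and 0.03. TTK, a spindle checkpoint kinase, had pair responses of −0.17, −0.34 and −0.18 (adjusted p = 0.177), and CDC20, an activator of the anaphase-promoting complex, had 0.17, 0.22 and 0.12 (adjusted p = 0.192).

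The promoters of 4 of these histone genes are shown because the members moved together and share sequence next to their start sites. Each line gives the 250 bases upstream of the RefSeq start site (GRCh38.p14), 5′ to 3′ on the gene's strand. HIST1H1C lies at chr6:26056471-26056720 on the minus strand, HIST1H2AC at chr6:26123922-26124171 on the plus strand, HIST2H2BE at chr1:149886683-149886932 on the minus strand and HIST2H2AA3 at chr1:149842751-149843000 on the minus strand. Capitals mark the CCAAT box (CCAAT), the TATA box (TATAAA) and a box known from linker histone promoters (AAACACA), each on either strand.
HIST1H1C: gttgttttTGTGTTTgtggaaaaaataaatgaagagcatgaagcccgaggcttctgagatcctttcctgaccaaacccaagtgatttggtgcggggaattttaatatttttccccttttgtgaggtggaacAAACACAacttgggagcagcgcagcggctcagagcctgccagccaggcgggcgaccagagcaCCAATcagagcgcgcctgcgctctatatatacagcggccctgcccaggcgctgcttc
HIST1H2AC: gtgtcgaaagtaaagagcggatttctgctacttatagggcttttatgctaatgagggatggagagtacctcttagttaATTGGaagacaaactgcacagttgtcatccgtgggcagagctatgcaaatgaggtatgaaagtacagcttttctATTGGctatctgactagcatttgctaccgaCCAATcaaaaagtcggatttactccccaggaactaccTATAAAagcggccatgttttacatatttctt
HIST2H2BE: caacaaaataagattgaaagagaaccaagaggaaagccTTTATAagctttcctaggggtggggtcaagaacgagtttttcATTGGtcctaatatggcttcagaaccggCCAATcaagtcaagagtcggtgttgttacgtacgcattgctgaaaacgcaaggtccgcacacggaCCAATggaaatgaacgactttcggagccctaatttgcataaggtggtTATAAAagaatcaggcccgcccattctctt
HIST2H2AA3: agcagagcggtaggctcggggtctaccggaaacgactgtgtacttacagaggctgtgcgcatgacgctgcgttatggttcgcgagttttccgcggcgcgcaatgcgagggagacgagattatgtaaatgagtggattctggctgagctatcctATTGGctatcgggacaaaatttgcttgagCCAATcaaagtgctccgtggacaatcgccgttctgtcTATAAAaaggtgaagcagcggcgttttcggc
The CCAAT box lay in all 4 windows. The exact string TATAAA lay in the 3 core histone windows, where the match nearest the start began 30 or 31 bases upstream of it. The HIST1H1C window holds tatatata close to the start site, which the search for TATAAA does not count. The linker histone box had 2 matches in HIST1H1C.

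Over the 21 histone genes tested, the CCAAT box lay in the 250 bases upstream of 19 (90.5%), against 35.0% of the 10372 tested genes with a RefSeq promoter, the TATA box in 13 (61.9%, against 5.38%) and the linker histone box in 4 (19%, against 2.49%). In the 10 promoters found for genes called lower, HIST1H1C among them, the CCAAT box lay in 6 (60%), the exact string TATAAA in 0 and the linker histone box in 1 (10%). These 3 motifs were kept after 15 had been searched on both strands and the shares seen. Whether any motif has a part in the responses was not tested. The other 12, with their share among the histone genes and among all promoters, were the E box CACGTG (0% and 8.85%), a spaced pair of E boxes (0% and 0.125%), a looser form of that pair (0% and 1.35%), the ATF4 element TGATGNAA (0% and 1.45%), the GATA element AGATAA (4.76% and 4.61%), a CArG-like box (52.4% and 87.0%), the AP-1 site TGANTCA (0% and 3.9%), the CRE TGACGTCA (4.76% and 2.95%), the hypoxia element NACGTG (19% and 22.8%), the NRF1 palindrome (0% and 2.0%), the ETS site CCGGAAGT (0% and 7.21%) and the GC box GGGCGG (23.8% and 67.0%). The hypoxia element holds the E box, and the looser pair of E boxes holds the stricter one, so these counts overlap. The windows of HIST1H2AC and HIST1H2BC are the same divergent stretch read from either end. A match is a description of the letters, not a bound site.

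Mitochondrially encoded mRNAs differed between the clones. All 13 had a negative response in NT, 11 of 13 in c1 and 5 of 13 in c2, and the medians were −0.41, −0.27 and 0.10. Of the 13, 5 were negative in every pair and 6 were lower at an unadjusted p under 0.05, against 19.5% and 7.31% of all genes tested. The calls were 0 by edgeR, 1 by DESeq2 and 0 by voom. MT-CO1, a core subunit of cytochrome oxidase, stood at 13280, 16420 and 12150 CPM uninduced and at 9162, 12410 and 11560 CPM induced in NT, c1 and c2 (log2 fold change −0.34 ± 0.08, adjusted p = 0.177). MT-ND4, a subunit of complex I, had pair responses of −0.54, −0.42 and −0.04 (adjusted p = 0.194), and MT-ND4L had −0.61, −0.45 and −0.08 (adjusted p = 0.176). As a share of all estimated reads, mitochondrial transcripts went from 5.22% to 4.03% in NT, from 5.72% to 4.78% in c1 and from 4.34% to 4.58% in c2.

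Nuclear genes of mitochondria had list medians within 0.1 of 0 in every pair, and edgeR, DESeq2 and voom called none in these lists except NDUFA5, by DESeq2. Of 20 factors of mitochondrial translation and transcription, 11 had a negative response in every pair and 1 a positive one, with medians of −0.05, −0.10 and −0.08 in NT, c1 and c2. At an unadjusted p under 0.05, 6 of the 20 were lower and 1 higher. Over all genes tested, 18.7% were positive and 19.5% negative in every pair, and 6.88% were higher and 7.31% lower at that level. TFB2M, a mitochondrial transcription factor, had −0.12, −0.18 and −0.25 (adjusted p = 0.237), and GFM1, a mitochondrial elongation factor, had −0.16, −0.11 and −0.15 (adjusted p = 0.244). Of the 34 nuclear subunits of complexes III and IV and ATP synthase, 12 had a negative response in every pair and 1 a positive one, with a median of −0.03 in NT, −0.001 in c1 and −0.03 in c2. Of the 38 nuclear complex I subunits, 6 were positive and 7 negative in every pair, near the shares over all genes tested. NDUFA5, a complex I subunit, had the smallest p of these, with −0.19, −0.20 and −0.23 (adjusted p = 0.120). Of 15 mitochondrial proteases and chaperones, 1 was higher at an unadjusted p under 0.05, HSPE1, the partner of the chaperonin HSP60, with 0.13, 0.23 and 0.06 (adjusted p = 0.291).

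Targets of ATF4, the transcription factor that cells use in the integrated stress response to mitochondrial, amino acid or ER stress, differed in sign between the clones. Of 22 tested, 1 was positive in NT, 19 in c1 and 4 in c2, and the medians were −0.29, 0.23 and −0.15. None was positive and 3 were negative in every pair, against 18.7% and 19.5% of all genes tested. At an unadjusted p under 0.05, 2 were lower, against 7.31% of all genes tested. The calls were 0 by edgeR, while DESeq2 and voom each called 1 lower. DDIT4, an inhibitor of mTORC1, stood at 703.2, 225.9 and 360.3 CPM uninduced and at 398.4, 307.8 and 324.7 CPM induced in NT, c1 and c2. The uninduced libraries of the clones were thus further apart than the induced ones. SLC38A2, an amino acid transporter, was the member of smallest p, at 710.2, 417.2 and 666.1 CPM uninduced and 480.9, 342.8 and 517.7 CPM induced (log2 fold change −0.40 ± 0.06, adjusted p = 0.0579). SLC7A11, the cystine transporter, had pair responses of −0.63, 0.0005 and −0.22 (adjusted p = 0.322). Genes of serine, one-carbon and proline synthesis followed the same order of clones, with medians of −0.06, 0.19 and 0.01.

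**Figure D4:**
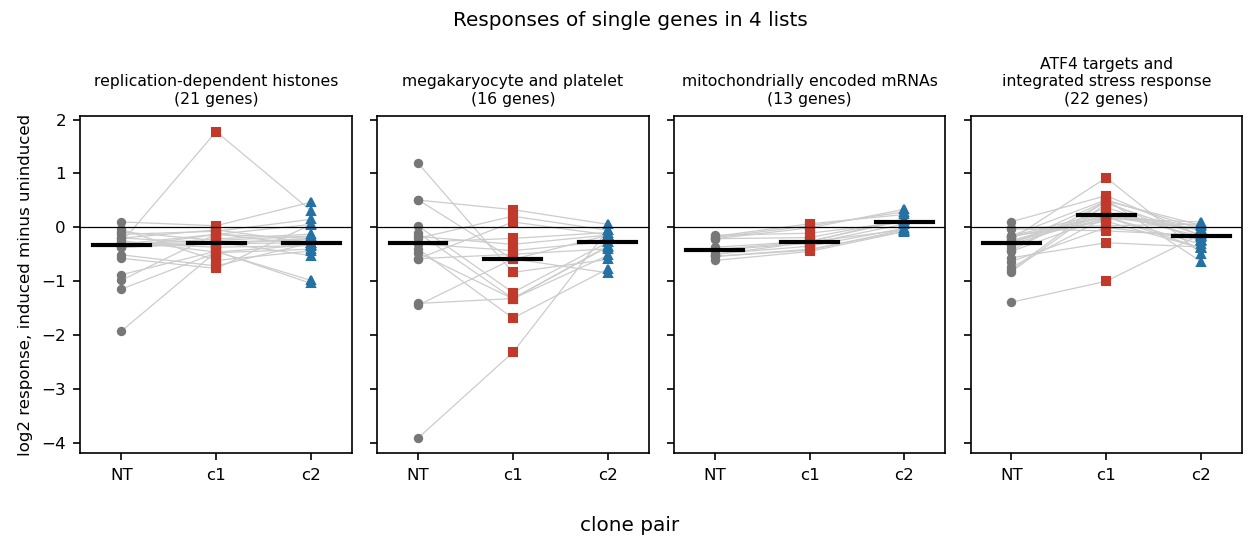
Pair responses (log2 CPM induced minus uninduced, vertical axis) of single genes in 4 lists, with grey lines joining the NT, c1 and c2 pairs of a gene and black bars at the median of each pair. The histone medians are −0.33, −0.29 and −0.28, the megakaryocyte ones −0.29, −0.59 and −0.27, the mitochondrial ones −0.41, −0.27 and 0.10, and the ATF4 target ones −0.29, 0.23 and −0.15.

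Globin genes had mostly positive responses of small size in each clone. Haem synthesis and red cell membrane genes did so in c1 and c2, with 4 of 9 and 13 of 24 positive in NT. Erythroid transcription factors went both ways, and edgeR called no gene of these lists. Of 9 globin genes tested, 6 had a positive response in every pair and 1 a negative one, with medians of 0.07, 0.11 and 0.15 in NT, c1 and c2. At an unadjusted p under 0.05, 4 were higher and 1 lower, and DESeq2 called 3 higher and voom 0. Over all genes tested, 18.7% were positive and 19.5% negative in every pair, and 6.88% were higher and 7.31% lower at that level. HBA2 stood at 825.1, 649.1 and 279.5 CPM uninduced and at 905.0, 799.6 and 372.7 CPM induced (adjusted p = 0.128). HBA1 had pair responses of 0.11, 0.18 and 0.26 (adjusted p = 0.179), and the reads of these near-identical copies may be divided between them. HBZ, embryonic zeta globin, had 0.07, 0.27 and 0.32 (adjusted p = 0.182). Of 9 haem synthesis genes, 3 were positive and 0 negative in every pair, with medians of −0.007, 0.14 and 0.14 in NT, c1 and c2. At an unadjusted p under 0.05, 2 were higher and 0 lower, and DESeq2 called 1 higher and voom 0. ALAS2, which catalyses the entry step of haem synthesis in red cells, had pair responses of 0.10, 0.27 and 0.50 (adjusted p = 0.185, and 0.0212 by DESeq2). Of 24 genes of the red cell membrane and blood groups, 11 were positive and 4 negative in every pair, 9 were higher and 1 lower at an unadjusted p under 0.05, and the medians were 0.04, 0.15 and 0.15. DESeq2 and voom called none of the 24. RHCE, which carries Rh antigens, had 0.28, 0.47 and 0.47 (adjusted p = 0.0973), DMTN, dematin, had 0.12, 0.36 and 0.25 (adjusted p = 0.182), and EPB42 had 0.67, 1.64 and 1.06 from a level of no more than 5.70 CPM (adjusted p = 0.179). Of 13 erythroid transcription factors, 5 were positive and 4 negative in every pair. At an unadjusted p under 0.05, 3 were higher and 3 lower, and DESeq2 called 2 lower and voom 0. MYB, which keeps progenitors immature, had −0.22, −0.29 and −0.24 (adjusted p = 0.0911, and 0.00855 by DESeq2). RUNX1 had −0.48, −0.05 and −0.34 (adjusted p = 0.207, and 0.0498 by DESeq2), and TAL1 had 0.08, 0.22 and 0.17 (adjusted p = 0.232).

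Megakaryocyte and platelet genes were negative in every pair for 10 of 16 tested and positive for 1, against 19.5% and 18.7% of all genes tested. At an unadjusted p under 0.05, 7 were lower and 0 higher, against 7.31% and 6.88% of all genes tested. The calls were 0 by edgeR, 2 lower by DESeq2 and 0 by voom, with medians of −0.29, −0.59 and −0.27 in NT, c1 and c2. In those pairs 4, 3 and 1 of the 16 were positive. Some members were near 0 in c1, such as FLI1 (0.245 CPM uninduced, 0.0663 induced) and SELP (0.28 and 0), so the c1 median rests partly on few reads. GP1BB went from 179.5 to 207.2 CPM in c1 and was lower with doxycycline in NT and c2. CD9 was higher in every clone (edgeR adjusted p = 0.403). GP6, the platelet collagen receptor, stood at 35.0, 18.1 and 29.3 CPM uninduced and at 23.4, 12.8 and 22.2 CPM induced (log2 fold change −0.49 ± 0.07, adjusted p = 0.0584). RAB27B, a GTPase of granule release, stood at 54.4, 25.8 and 115.9 CPM uninduced and at 39.3, 10.3 and 80.9 CPM induced (−0.73 ± 0.15, adjusted p = 0.129). PLEK, pleckstrin, stood at 3.62, 1.75 and 48.6 CPM uninduced and at 2.74, 0.496 and 28.5 CPM induced (adjusted p = 0.169). ITGB3, the beta chain of the fibrinogen receptor, had pair responses of −0.30, −0.43 and −0.26 (adjusted p = 0.182), and its partner ITGA2B had −0.27, −0.20 and −0.10 (adjusted p = 0.274). c2 expressed several of these genes far more than the other clones did in both conditions, and the sums of the 19 members found were, in CPM, 558.7, 345.9 and 824.8 uninduced and 467.2, 332.1 and 714.3 induced. TREML1 was at 0 in every library.

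Markers of other blood and stromal cells were low or absent. Of 13 granulocyte and monocyte markers, ELANE and CTSG were at 0 in every library, and the sums ran from 114.1 to 152.7 CPM uninduced and from 83.0 to 131.4 CPM induced, most of it from LYZ and CD68. LYZ, lysozyme, stood at 92.8, 90.3 and 95.5 CPM uninduced and at 75.7, 67.1 and 66.7 CPM induced (log2 fold change −0.41 ± 0.06, adjusted p = 0.0579), without overlap. CD68 had pair responses of −0.12, −0.72 and −0.42 (adjusted p = 0.204). Lymphoid markers summed to 15.2 to 44.7 CPM uninduced and to 9.91 to 32.1 CPM induced, with MS4A1 at 0 throughout and CD3E at no more than 0.584 CPM. CD3D and CD3G gave most of that sum. CD3G stood at 2.26, 20.0 and 1.17 CPM uninduced and at 1.31, 11.4 and 0.533 CPM induced (−0.87 ± 0.15, adjusted p = 0.0973). Fibroblast and endothelial markers summed to 30.6 to 62.7 CPM uninduced and to 23.5 to 52.0 CPM induced, with PECAM1, which platelets and endothelium share, at −0.26, −0.53 and −0.39 (adjusted p = 0.127) and CDH5 at no more than 0.133 CPM. The part of these markers in the results above was not tested.

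**Figure D5:**
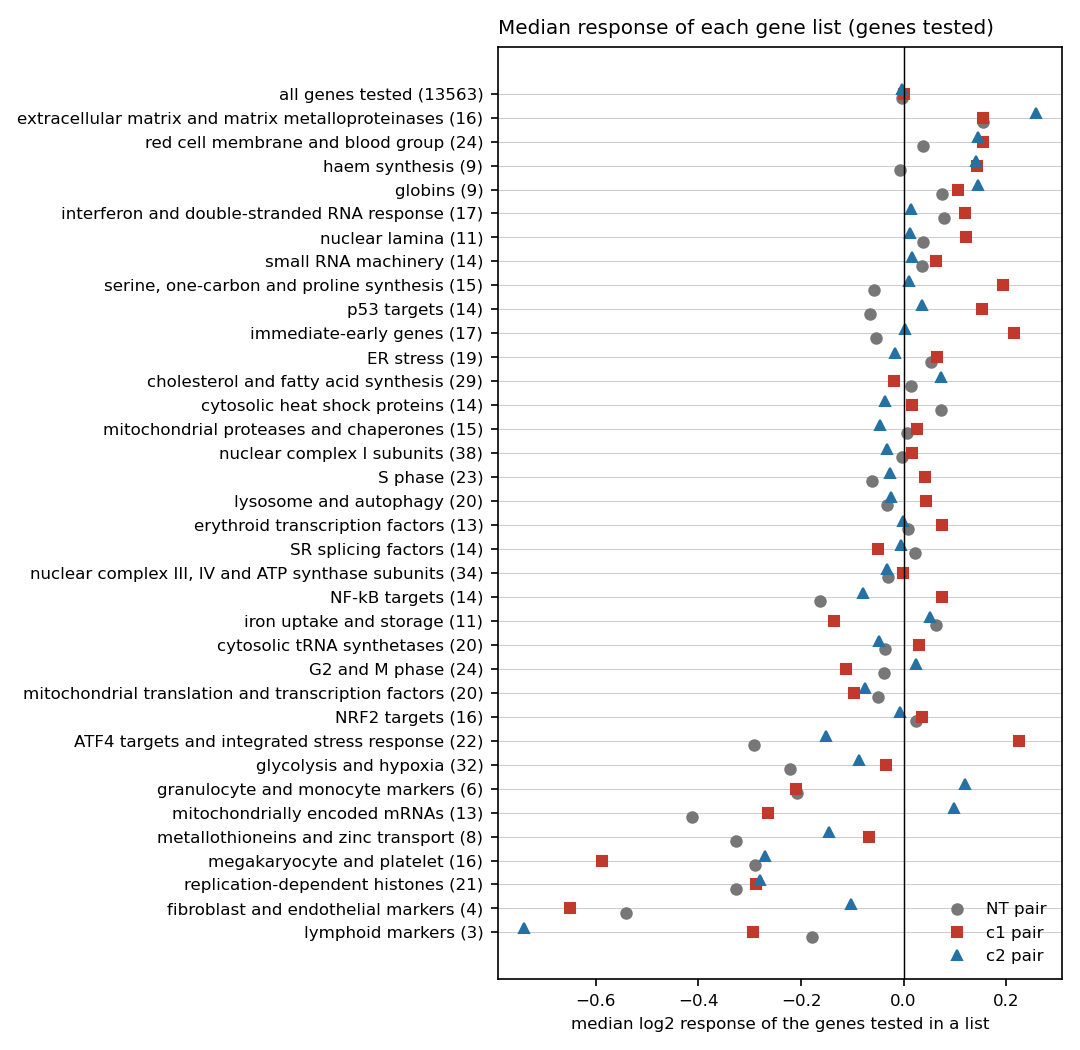
Median pair response (log2 CPM induced minus uninduced, horizontal axis) of each gene list and of all genes tested, with the number of genes tested in parentheses and circles, squares and triangles for the NT, c1 and c2 pairs. The histone points lie together between −0.33 and −0.28, the matrix points lie between 0.15 and 0.26, and the ATF4 target points lie on both sides of 0.

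In the other lists given below for pathways that doxycycline or a hairpin could touch, edgeR called no member. Over all genes tested, 18.7% were positive and 19.5% negative in every pair, and 6.88% were higher and 7.31% lower at an unadjusted p under 0.05. Of 17 interferon and double-stranded RNA response genes tested, 5 were positive and 2 negative in every pair. OAS3, a sensor of double-stranded RNA, stood at 6.11, 4.86 and 4.76 CPM uninduced and at 8.63, 7.58 and 7.83 CPM induced (log2 fold change 0.62 ± 0.13, adjusted p = 0.132), without overlap. BST2 had pair responses of 0.26, 0.20 and 0.01 (adjusted p = 0.295) and STAT2 had −0.05, −0.20 and −0.16 (adjusted p = 0.347). Of 14 genes of the small RNA machinery, 5 were positive and 1 negative in every pair. AGO2, the Argonaute that cuts hairpin targets, was higher at an unadjusted p under 0.05, with 0.08, 0.17 and 0.32 (adjusted p = 0.303). Of 8 metallothionein and zinc transport genes, 3 were negative and 0 positive in every pair, and MT2A stood at 14.8, 7.79 and 26.4 CPM uninduced and at 11.4, 5.96 and 23.5 CPM induced (adjusted p = 0.237). Of 29 genes of cholesterol and fatty acid synthesis, 8 were positive and 2 negative in every pair. At an unadjusted p under 0.05, 3 were higher and 2 lower, and DESeq2 and voom each called 1 higher. SQLE, squalene epoxidase, was lower in every pair, with responses of −0.16, −0.16 and −0.14 (adjusted p = 0.194).

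Of 14 p53 targets, 2 were higher and 0 lower at an unadjusted p under 0.05, against 6.88% and 7.31% of all genes tested. They were AEN, an exonuclease, with 0.35, 0.30 and 0.09 (adjusted p = 0.199), and MDM2, the ubiquitin ligase of p53, with 1.01, 0.38 and 0.07 (adjusted p = 0.311). Of 19 ER stress genes, DNAJB9, an ER co-chaperone, had −0.20, −0.45 and −0.46 (adjusted p = 0.174), HERPUD1 had −0.30, −0.19 and −0.26 (adjusted p = 0.185) and SDF2L1 had 0.33, 0.27 and 0.08 (adjusted p = 0.182), so members of smallest p lay on both sides of 0. Of 20 lysosome and autophagy genes, CTSB, cathepsin B, stood at 184.2, 175.1 and 178.0 CPM uninduced and at 205.7, 228.9 and 221.7 CPM induced (adjusted p = 0.105), without overlap. Of 11 genes of iron uptake and storage, TFR2, transferrin receptor 2, had 0.16, 0.20 and 0.20 (adjusted p = 0.163). Cytosolic heat shock proteins had 0 of 14 members at an unadjusted p under 0.05 in either direction.

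Agreement in size was counted within the genes that agreed in sign, so it could not be more frequent. In all, 5174 genes had the same sign in every pair, 2531 positive (18.7%) and 2643 negative (19.5%). A response of at least 0.3 on the log2 scale in each pair was seen in 337 genes, 147 positive (1.08%) and 190 negative (1.4%). With a mean of at least 5 CPM there were 34 positive and 64 negative genes. The 3 induced libraries lay wholly above the 3 uninduced ones for 440 genes (3.24%) and wholly below them for 443 (3.27%). Of the 20 called genes, 6 had groups that did not overlap, and in the other 14 the clones differed from each other by more than the response.

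To see how far calls from 2 clones carried over to the other clone, the paired test was fitted without each clone in turn. Only genes that also passed the filter on all 6 libraries were counted here. Without that limit the fits called 138 genes without NT, 3 without c1 and 53 without c2. Fitted on c1 and c2, it called 135 genes, and 110 of them (81.5%) had the same sign in NT, against 59.8% of all genes. Fitted on NT and c1, it called 52, and 43 of them (82.7%) had the same sign in c2, against 61.8%. Fitted on NT and c2, it called 3, of which 1 (33.3%) had the same sign in c1, against 61.5%. When NT was left out, its responses were smaller than the fitted ones, with medians of 0.16 for genes called higher, where the fit gave 0.52, and −0.23 for genes called lower, where the fit gave −0.54. The same held for c2, with 0.26 where the fit gave 0.82 and −0.29 where it gave −0.55, and in c1 the 3 genes called lower had a median of 0.18 where the fit gave −1.24. Calls favour genes with large fitted values in the clones used. Smaller medians in the clone left out therefore do not measure a weaker response there. The fit without NT used only clones with the CDAN1 hairpin, so its calls can include effects of that hairpin. The SD of the pair response over genes was 0.431 in NT, 0.475 in c1 and 0.419 in c2.

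Whether the shared response differed between hairpins was asked with a term for the CDAN1 clones against NT, which leaves 1 residual degree of freedom. It called 21 genes, 0.155% of those tested, CDAN1 among them, and 0 of the 20 genes of the shared response, and the same term in DESeq2 and voom also called 0 of them. Of those 20, SCG3 and CD69 had an unadjusted p under 0.05 for the difference, as did 5.22% of all genes tested. A p that misses the threshold does not show that the responses were alike, and the other called genes had differences between −0.22 for LMNB2 and 0.23 for FAM117A, leaving out AC120057.2.

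A few genes were read out as on or off, and each shares exons with another gene. AC120057.2 had 56, 41 and 42 reads in the uninduced libraries of NT, c1 and c2 and 0 in the induced ones. It was called lower (adjusted p = 0.0457), and 89.0% of its exon bases lie in exons of GABARAP on the same strand. Against a floor of 3 reads over the induced group it was at least 46.3-fold lower. AS3MT had 39, 37 and 38 reads uninduced and 0 induced, while BORCS7-ASMT had 0 uninduced and 46, 37 and 30 induced, and 96.8% of the exon bases of AS3MT lie in exons of BORCS7-ASMT. AP001781.2 had 0 reads uninduced and 24, 42 and 40 induced, and shares exons with ALG9 and FDXACB1. Against the floor these were at least 38-fold lower for AS3MT and at least 37.7-fold and 35.3-fold higher for BORCS7-ASMT and AP001781.2, and edgeR called none of the 3 (adjusted p = 0.0508, 0.0555 and 0.0579), while DESeq2 and voom called all 3. The estimates assign shared reads to 1 transcript model or another, so these values give the assignment and not the output of each gene.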

How the data were processed

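The 6 libraries, made from total RNA with the NEBNext Ultra RNA kit per the labels' protocols, were quantified by the authors with Salmon 1.5.2 against GRCh37 (hg19), per the submitters' processing notes. Per the file headers, each deposited table lists transcripts with an expected count of reads and a TPM value. Trimming, strand, RNA selection and the transcript annotation are not given in the sources used, so values of overlapping, antisense and near-identical genes are uncertain.

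Of 167268 transcripts, 151039 (90.3%) matched GENCODE release 29 by identifier. Their expected counts were summed to 33367 genes and rounded. Unmatched transcripts held 6.23% to 6.5% of a library's reads and were left out. GENCODE 29 lies on GRCh38, which the printed coordinates follow. filterByExpr with the 2 doxycycline groups left 13563 of 21165 genes with a count above 0. Libraries held 28318555 to 32352246 reads, which sets the counting error of low genes.

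Tests used edgeR 4.0.16 in R 4.3.3 (quasi-likelihood, two-sided, Benjamini-Hochberg over all genes tested, threshold 0.05), with clone and doxycycline as terms and 2 residual degrees of freedom. DESeq2 1.42.0 and limma 3.58.1 were alternatives, and log2 TPM values used a pseudocount of 1. SE is the fold change over the root of F, and log2 CPM used a prior count of 2. The clone pairs the libraries: deviations from the group means correlated across genes between the libraries of a clone (Pearson's r was 0.593 in NT, 0.672 in c1 and 0.713 in c2). No pair of libraries was identical. The scripts were tested on simulated data. Named genes were the 12 per direction with the largest smallest-pair response among called genes with a mean of at least 5 CPM, filled by unadjusted p, and the 3 members of smallest p in each list described. The remaining called genes and any other gene were named after their values were seen, and a few genes that the rule names are not reported here. The comparison, its 36 gene lists and its alternatives were chosen with earlier results of these data known. Promoters came from RefSeq (GRCh38.p14), matched through GENCODE's Entrez identifiers for 10372 genes.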

Additional observations from a re-analysis of the deposited data

Results flagged for a closer look

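CDAN1 responded differently in the clones with its hairpin than in NT. The response of c1 and c2 minus that of NT was −1.17 on the log2 scale (edgeR's quasi-likelihood test of the difference, adjusted p = 0.0176), from pair responses of 0.17 in NT, −1.11 in c1 and −0.90 in c2. It is the target of the hairpin in c1 and c2 and has no part in the response shared by the clones. Groups of 3 libraries are too small for a check of outlying samples.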

How the results depend on the processing

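The 20 called genes kept their sign under every alternative given here, and had an unadjusted p under 0.05 in all of these but the fit with no replicate block, where 6 of 20 did. The number of calls did not hold. It was 20 in the main analysis, 18 with DESeq2's size factors, 24 with library totals, 49 with a floor of 1 CPM, 248 with no filter on low counts, 148 with DESeq2, 42 with voom and 1 with limma on log2(TPM + 1) (AC120057.2). No replicate block, an offset for transcript length, and keeping unmatched transcripts each gave 0 calls by edgeR; DESeq2 and voom were not run without the block. Leaving out 1 library or 1 clone gave between 3 and 166 calls: 3 without either or both libraries of c1, 166 and 110 without the induced or uninduced NT library and 138 without both, 79 without either c2 library and 53 without both. Of the 20 genes, 1 was called without c1, 20 without NT and 13 without c2. A lone library left in a clone adds nothing to the paired estimate. DDIT4, not called (−0.18), reached 0.147, 0.142 and 0.147 without NT libraries and −0.49 without c1, so its range without 1 library or clone was −0.49 to 0.15. FRYL without the transcript FRYL-205, an alternative chosen after seeing the data, was −0.43 with adjusted p = 0.145. The difference between CDAN1 clones and NT gave 21 calls, 9 with DESeq2 and 16 with voom. Genes with at least 0.3 in each pair numbered 337, 357 with a prior count of 0.5, 339 with DESeq2's size factors, 190 with a floor of 1 CPM and 48 with at least 0.6 in each pair. The cause of these shifts was not tested, except that the stricter floors leave fewer genes. For named genes that were not called, 177 of the values under alternatives passed the threshold and 1452 kept direction and did not. With 2 residual degrees of freedom the tests depend on pooling the dispersion over genes.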
